A study of Mus musculus with 12 samples.

Results

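Acod1, which encodes the itaconate-making enzyme of macrophages, and 8 enzymes of the tricarboxylic acid cycle or of its side reactions were followed in mouse bone-marrow-derived macrophages. The 9 genes (Acod1, Cs, Aco1, Idh1, Idh2, Idh3a, Idh3b, Ogdh and Mdh2) were chosen by name out of the 15555 genes of the deposited count table, and all 9 passed the filter on low counts that left 12671 genes for testing. The samples were 12 RNA-seq libraries in 4 groups of 3: wild type (WT), deletion of Cbl (Cbl-/-), deletion of Cblb (Cbl-b-/-) and the knockout of both genes (DKO). The proteins encoded by Cbl and Cblb are ubiquitin ligases that attach ubiquitin to activated receptors, including the receptor for the growth factor CSF-1, and so limit their signalling. In every group, marrow cells were cultured to day 9 with serum and L-cell supernatant as the source of CSF-1, and the adherent cells gave the RNA, per the labels. No further stimulus, strain, age of the animals or knockout construct is named in the labels. The labels mention pooling of RNA in equal amounts and do not tie the replicates to separate animals, so a p-value here reflects the variation among these libraries, which may be technical.

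In the cycle, citrate synthase joins acetyl-CoA to oxaloacetate, aconitase turns the citrate into isocitrate through cis-aconitate, and a chain of dehydrogenases returns the carbon to oxaloacetate while reducing NAD and ubiquinone. ACOD1 removes a carboxyl group from cis-aconitate inside the mitochondrion and makes itaconate, which inhibits succinate dehydrogenase and is known for its antimicrobial and anti-inflammatory effects. Acod1 is scarcely transcribed in resting macrophages and is strongly induced by microbial products and interferons, and in such cells citrate is often drawn off toward itaconate and lipid synthesis. RNA levels measure neither enzyme activity nor metabolite levels.

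The deposited counts summed to between 21048103 and 43946503 per library. The transcript of Cbl (ENSMUSG00000034342) was at 51.5 ± 2.3 CPM in Cbl-/- and 37.6 ± 3.1 in DKO, below 140 ± 3.4 in WT (CPM are counts scaled to library size with TMM factors, SD, n = 3). That of Cblb (ENSMUSG00000022637) was at 52.8 ± 2.9 CPM in Cbl-b-/- and 71.7 ± 3.2 in DKO beside 59.4 ± 3.5 in WT. In Cbl-b-/- it lay below WT without overlap (49.4 to 54.5 against 55.5 to 62.2 CPM). This change was in the direction of the label, but it was small and not called (log2 -0.17). In DKO the transcript was called higher than in WT (log2 0.27), opposite to the label. Its level therefore does not establish the deletion in either group. Below, Cbl-b-/- and DKO mean the libraries that carry those labels, and any direction drawn from them rests on the labels. The library DKO 3 stood apart from DKO 1 and DKO 2: the chi-square per degree of freedom between replicate counts was 44.7 and 55.3 for its pairs, against 3.93 to 12.3 for the other pairs of replicates. The members' changes and the list counts for DKO against WT are therefore given with and without it. The 8 macrophage markers (among them Adgre1, Csf1r and Cd68) were abundant in every library, which fits the labelled cell type, but they moved with the genotype. They summed to 19937 to 21921 CPM in WT, 20326 to 22670 in the libraries labelled Cbl-b-/-, 17138 to 18117 in Cbl-/- and 17073 to 20316 in those labelled DKO, so Cbl-/- lay below WT without overlap. In Cbl-/- 3 of the 8 were called lower (Adgre1, Lyz2 and Mertk), where 4.19% of all genes tested were called lower. Without DKO 3 the adjusted p of Mertk there was 0.066, and Cd68 was called lower as well (log2 -0.22, adjusted p = 0.0025). In DKO, Mertk (log2 -1.21), Adgre1 (-0.37) and Csf1r (-0.37) were called lower and Fcgr1 (0.82) and Cd14 (0.66) higher. Of all genes tested, 16.3% were called lower there and 19.1% higher. Without DKO 3, Lyz2 was also called lower in DKO (log2 -0.24, adjusted p = 0.0089). Markers of other marrow cells were low and also moved. The 5 neutrophil markers measured (S100a8, S100a9, Ltf, Ngp and Mmp8; Ly6g, Camp, Elane, Mpo and Retnlg are not in the table) summed to 31.4 to 38.3 CPM in WT, 42.7 to 52.9 in the libraries labelled Cbl-b-/-, 48.1 to 49.7 in Cbl-/- and 81.0 to 110 in those labelled DKO. The 5 monocyte markers (Ly6c2, Ccr2, Vcan, F13a1 and Chil3) summed to 56.5 to 61.8, 77.7 to 86.7, 82.6 to 93.2 and 152 to 205 CPM in the same order.

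Acod1 (ENSMUSG00000022126, a protein-coding gene on the plus strand of chromosome 14, 103046977 to 103056573, GENCODE annotation of GRCm38) was higher in every mutant group than in WT, and each group occupied its own range. Its level was 5.42, 5.47 and 4.79 CPM in WT 1 to 3, and 10.7, 18.7 and 14.2 CPM in the libraries labelled Cbl-b-/-. It was 32.1, 35.8 and 35.3 CPM in Cbl-/-, and 97.3, 105.4 and 107.4 CPM in the libraries labelled DKO. WT was thus the lowest group and DKO the highest, and no library of any group overlapped the range of another group. The group labelled Cbl-b-/- was the most variable, at 14.5 ± 4.0 CPM (SD, n = 3) against 5.23 ± 0.38 in WT, 34.4 ± 2.0 in Cbl-/- and 103 ± 5.3 in DKO. The counts behind these levels ran from 134 to 4428 per library.

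**Figure D1:**
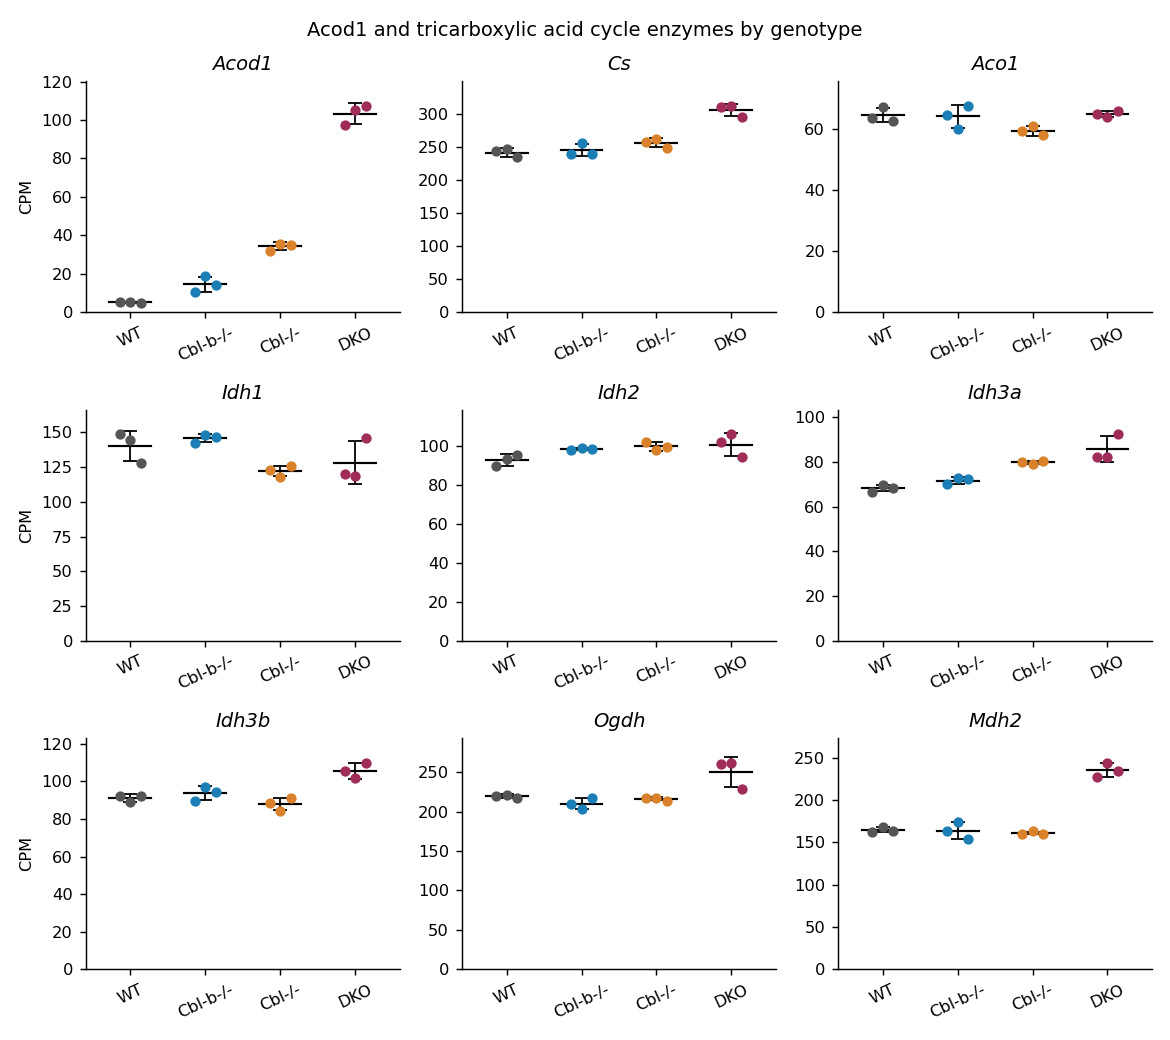
Levels of Acod1 and the 8 cycle enzymes in each library, in CPM on a separate axis for each gene; points are libraries, bars are group means with SD (n = 3). Acod1 rises from 5.23 CPM in WT to 103 CPM in the libraries labelled DKO with no overlap between groups, whereas Mdh2 and Cs are higher in the libraries labelled DKO alone.

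Against WT, Acod1 rose 6.54-fold in Cbl-/- (log2 fold change 2.71, SE 0.15, adjusted p = 8.1e-09), 2.76-fold in the libraries labelled Cbl-b-/- (1.47, SE 0.16, adjusted p = 2.3e-04) and 19.7-fold in those labelled DKO (4.30, SE 0.15, adjusted p = 1.9e-11). All adjusted p-values come from edgeR's quasi-likelihood test, with the Benjamini-Hochberg method applied across the 12671 genes at a threshold of 0.05. By log2 fold change Acod1 ranked 20 of the 720 genes that rose in Cbl-/-, 7 of the 50 that rose in the libraries labelled Cbl-b-/- and 18 of the 2423 that rose in those labelled DKO. WT is the common reference of these 3 comparisons, so they are not independent. Between mutant groups, Acod1 was 2.37-fold higher in Cbl-/- than in the libraries labelled Cbl-b-/- (log2 1.24, SE 0.14, adjusted p = 2.7e-05). It was 3.01-fold higher in DKO than in Cbl-/- (log2 1.59, SE 0.13, adjusted p = 2.4e-07) and 7.12-fold higher than in the libraries labelled Cbl-b-/- (2.83, SE 0.14, adjusted p = 8.5e-10). All 6 calls between genotypes were kept under each of the 20 alternatives tried, and without DKO 3 the log2 fold change of DKO against WT was 4.27.

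The departure of Acod1 in the libraries labelled DKO from the sum of both single-knockout effects was 0.12 on the log2 scale (SE 0.20, adjusted p = 0.74). This value ranged from -0.07 to 0.36 when each library was left out, with the lowest value without Cbl-b-/- 1, so neither its sign nor its absence is established. The group means of Acod1 followed the order of the neutrophil and monocyte marker sums given above, in which the libraries labelled Cbl-b-/- and Cbl-/- overlapped. The genes that moved within the neutrophil sums differed only in part between groups. In Cbl-/-, 3 of the 5 markers were called higher, where 5.68% of all genes were. These were Ngp (log2 1.19, adjusted p = 0.0068), S100a9 (0.92, adjusted p = 0.047) and Mmp8, while S100a8 and Ltf were not called. In the fit to all libraries, 0 of the 5 were called in those labelled Cbl-b-/-. Against WT, Mmp8 was at log2 0.47 in the libraries labelled Cbl-b-/- (adjusted p = 0.081, and 0.023 without DKO 3) and at 0.49 in Cbl-/-. In those labelled DKO, Mmp8 was at -0.63 while the other 4 rose. In these bulk samples, fewer cells of a type and less RNA per cell cannot be told apart, and the part of the marker changes in the Acod1 result was not tested.

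The promoter of Acod1 is shown because its transcript moved far more than those of the cycle enzymes, with that of Mdh2, the cycle member with the largest change in the libraries labelled DKO, beside it. RefSeq gave promoters for 8 of the 9 members (GRCm38.p6, 250 bases before the start of the transcript, plus strand for both genes shown). The Acod1 window is chr14:103046762-103047011 and the Mdh2 window is chr5:135778399-135778648. The GENCODE gene starts (103046977 for Acod1 and 135778480 for Mdh2) lie inside these windows. Part of each window, with the TATAAA of Acod1, is thus within the gene as GENCODE annotates it. The capitals in the Acod1 sequence mark GGAANTTCC (shorter than the usual NF-kB form), AAGTGAAA (a form of the site of interferon regulatory factors) and TATAAA (the TATA box).
Acod1: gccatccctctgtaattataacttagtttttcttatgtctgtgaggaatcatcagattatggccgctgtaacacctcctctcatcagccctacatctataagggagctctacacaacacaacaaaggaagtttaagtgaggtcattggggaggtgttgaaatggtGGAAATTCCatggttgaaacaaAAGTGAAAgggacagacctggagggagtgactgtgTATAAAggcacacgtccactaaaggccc
Mdh2: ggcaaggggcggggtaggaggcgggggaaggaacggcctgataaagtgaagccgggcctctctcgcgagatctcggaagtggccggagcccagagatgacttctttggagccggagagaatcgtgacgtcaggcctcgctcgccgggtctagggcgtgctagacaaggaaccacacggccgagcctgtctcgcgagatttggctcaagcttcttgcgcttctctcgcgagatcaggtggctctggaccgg
Counted from the start of the transcript, GGAAATTCC lay at -85 to -77, AAGTGAAA at -63 to -56 and TATAAA at -28 to -23. These 3 motifs were searched after the sequence was seen, on both strands; they occurred in 0.813%, 1.36% and 12.4% of the 32851 RefSeq promoter windows and in no other member's promoter. Of the other forms searched, a longer NF-kB form, the interferon-stimulated response element and the STAT form TTCNNNGAA occurred in 1.21%, 2.98% and 7.02% of all windows and in no member's window. The Acod1 window held 2 CpG dinucleotides at 44.4% GC, a count that 29% of all windows do not exceed. The 13 windows of the 7 other members held 9 to 35, with a median of 18, and the Mdh2 window held 23. These are descriptions of the sequence, and no binding was measured.

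Per exonic base, Acod1 moved from the bottom of the set into its middle. Levels between genes are compared as RPKM (CPM per kilobase of exon). In WT the order of the means was Idh1 (50.7 RPKM), Mdh2 (46.3), Cs (41.8), Ogdh (40.2), Idh2 (35.8), Idh3b (26.6), Aco1 (14.4), Idh3a (13.5) and Acod1 (1.99). The ranges of Idh1 and Mdh2 overlapped there, as did those of Cs and Ogdh, while Acod1 lay far below Idh3a. In the libraries labelled DKO the order was Mdh2 (66.1 RPKM), Cs (52.9), Idh1 (46.3), Ogdh (45.8), Acod1 (39.4), Idh2 (38.9), Idh3b (30.9), Idh3a (16.9) and Aco1 (14.5). There Acod1 (37.1 to 40.9) overlapped Idh2 (36.3 to 40.9), and Idh1 (42.8 to 52.7) overlapped Cs and Ogdh. In Cbl-/-, Acod1 (13.1 ± 0.75 RPKM, SD, n = 3) overlapped Aco1 (13.3 RPKM), and in the libraries labelled Cbl-b-/- it was still the lowest, at 5.54 ± 1.5 RPKM.

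A ratio of 2 genes within a library does not depend on the scaling between libraries. These ratios were chosen after the values were seen. Acod1 stood at 0.0451 to 0.0492 of the level of Cs per exonic base in WT, 0.0986 to 0.161 in the libraries labelled Cbl-b-/-, 0.275 to 0.313 in Cbl-/- and 0.691 to 0.802 in those labelled DKO. This ratio separated all 4 groups. An exact permutation test of 3 libraries against 3 cannot give a p below 0.1, so these ratios carry no further test.

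**Figure D2:**
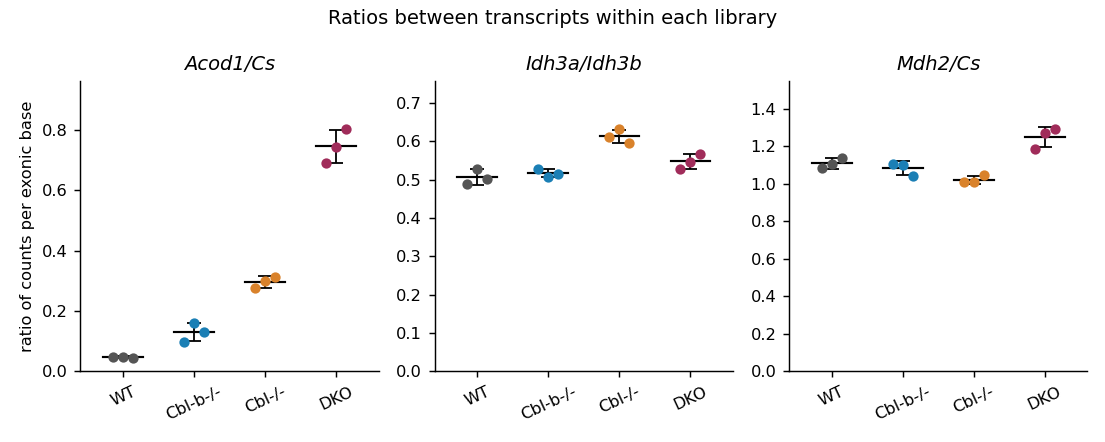
Ratios of transcripts per exonic base within each library (points), with group means and SD (bars, n = 3). Acod1/Cs reaches 0.691 to 0.802 in the libraries labelled DKO, Idh3a/Idh3b is highest in Cbl-/- (0.595 to 0.631), and Mdh2/Cs is highest in the libraries labelled DKO (1.19 to 1.29).

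Across the 9 genes, Cbl-/- differed from WT in Acod1 and Idh3a (2 of 9 called higher, where 5.68% of all genes tested were called higher and 4.19% lower, 9.87% in all). No member was called lower there by edgeR, limma or DESeq2, and 1 that was lower had an unadjusted p under 0.05 (Idh1). Acod1 alone was called in the libraries labelled Cbl-b-/- (1 of 9, against 0.395% of all genes higher, 0.0947% lower and 0.489% in all). In the libraries labelled DKO, 6 of 9 were called higher (Acod1, Cs, Idh3a, Idh3b, Ogdh and Mdh2), against 19.1% of all genes higher, 16.3% lower and 35.4% in all. The median log2 fold change of the members was -0.02, 0.04 and 0.21 in these 3 comparisons, beside -0.0065, 0.00060 and -0.0029 over all genes. Against Cbl-/-, 5 of 9 were higher in DKO (16% of all genes higher, 29.6% called in all), and against the libraries labelled Cbl-b-/- 6 of 9 were (17.7% higher, 33.2% in all). Between the single knockouts Acod1 alone was called by edgeR in the fit to all libraries (4.12% of all genes higher in Cbl-/-, 3.25% lower, 7.37% in all). Against WT, no member was called lower in DKO by edgeR, limma or DESeq2, and 0 that were lower had an unadjusted p under 0.05. Leaving out DKO 3 raised the count for DKO against WT to 7 of 9, with Idh2 added, and Idh1 was then called lower (20% of all genes higher and 17.4% lower in that fit). The counts of higher members against Cbl-/- and the libraries labelled Cbl-b-/- were again 5 and 6 without it. Cs, Ogdh and Mdh2, 3 of 9, also departed upward from the sum of the single-knockout effects, where 8.39% of all genes lay above it, 7.28% below it and 15.7% passed in all.

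Mdh2 (ENSMUSG00000019179, chromosome 5, 135778480 to 135790398, plus strand), the mitochondrial malate dehydrogenase that makes the oxaloacetate for the next turn of the cycle, rose most among the 8 cycle enzymes in the libraries labelled DKO. Its levels were 162, 168 and 164 CPM in WT, 160, 163 and 160 in Cbl-/-, 163, 174 and 154 in the libraries labelled Cbl-b-/-, and 227, 244 and 235 in those labelled DKO. The 3 libraries labelled DKO lay above all 9 others, which overlapped each other. In log2 fold change this was 0.51 above WT (SE 0.05, adjusted p = 1.7e-06), and 0.52 without DKO 3. In the single knockouts it was -0.03 (adjusted p = 0.80) and -0.01 (0.99). Its departure from the sum of the single-knockout effects was 0.56 (SE 0.08, adjusted p = 1.2e-04), which passed the test in all 19 alternatives.

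Cs (ENSMUSG00000005683, chromosome 10, 128337734 to 128362479, plus strand) encodes citrate synthase, the enzyme of the entry step. It had 243, 247 and 234 CPM in WT, 258, 262 and 248 in Cbl-/-, 239, 256 and 240 in the libraries labelled Cbl-b-/-, and 310.2, 312 and 295 in those labelled DKO. The libraries labelled DKO were again above all others. Cs rose against WT in DKO by 0.34 on the log2 scale (SE 0.05, adjusted p = 7.1e-05; 0.37 without DKO 3), and its log2 fold change in Cbl-/- was 0.08 (adjusted p = 0.38). The departure from additivity was 0.23 (SE 0.07, adjusted p = 0.036), a call lost in 11 of 19 alternatives: with total counts (log2 0.13), with no low-count filter, and when WT 1 or 2, any single Cbl-/- library, Cbl-b-/- 1 or 3, or DKO 1 or 2 was left out (adjusted p up to 0.10). Mdh2 stood at 1.08 to 1.14 of Cs per exonic base in WT and at 1.19 to 1.29 in the libraries labelled DKO, so the larger change of Mdh2 was also present within libraries.

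NAD-dependent isocitrate dehydrogenase is built from the products of Idh3a (catalytic alpha subunit), Idh3b and Idh3g. Idh3a (ENSMUSG00000032279, chromosome 9, 54586334 to 54604661, plus strand) was the cycle member called in Cbl-/-. It had 66.7, 69.5 and 68.5 CPM in WT, 70.1, 72.9 and 72.2 in the libraries labelled Cbl-b-/-, 80.2, 78.9 and 80.2 in Cbl-/-, and 82.4, 82.3 and 92.4 in those labelled DKO. No group overlapped another, but the step from WT to the libraries labelled Cbl-b-/- did not pass the test (log2 0.07, adjusted p = 0.88). The log2 fold change was 0.23 in Cbl-/- (SE 0.06, adjusted p = 0.016) and 0.33 in DKO (SE 0.06, adjusted p = 2.4e-04; 0.27 without DKO 3). The first was lost without WT 1 (adjusted p = 0.092), Cbl-/- 1 (0.064), Cbl-/- 2 (0.0502) or Cbl-/- 3 (0.063), where its log2 fold change was 0.21 to 0.23. Idh3a in DKO did not pass against Cbl-/- (log2 0.10, adjusted p = 0.18). Nor did Idh3a in Cbl-/- against the libraries labelled Cbl-b-/- (log2 0.15, adjusted p = 0.12), although it was called without DKO 3 (adjusted p = 0.015) and in a fit of those genotypes alone (0.034).

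Idh3b (ENSMUSG00000027406, chromosome 2, 130279309 to 130284547, minus strand) had 92.4, 88.8 and 92.0 CPM in WT, 88.4, 84.4 and 90.9 in Cbl-/-, 89.6, 97.0 and 94.5 in the libraries labelled Cbl-b-/-, and 105.3, 101.6 and 109.9 in those labelled DKO. The libraries labelled DKO lay above all others. Idh3b rose in DKO by 0.21 (SE 0.05, adjusted p = 0.0058; 0.19 without DKO 3), and its log2 fold change in Cbl-/- was -0.05 (adjusted p = 0.68). Scaling by total counts alone left the DKO value at 0.14 and not called (adjusted p = 0.055). Exons of Idh3b overlap those of Nop56 on the other strand, and the sources used here do not say whether counting used strand, so reads of the 2 genes may be mixed. Nop56 had 113 ± 4.5 CPM in WT and 125 ± 7.8 in DKO (SD, n = 3; log2 0.15, adjusted p = 0.056). Within libraries, the ratio Idh3a/Idh3b per exonic base was 0.487 to 0.528 in WT, 0.507 to 0.528 in the libraries labelled Cbl-b-/-, 0.595 to 0.631 in Cbl-/- and 0.528 to 0.567 in those labelled DKO. The transcript of the alpha subunit thus gained on that counted for the beta subunit in Cbl-/-, where no library overlapped another group.

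Ogdh (ENSMUSG00000020456, chromosome 11, 6291633 to 6356642, plus strand) encodes the first component of the 2-oxoglutarate dehydrogenase complex. It had 219, 222 and 217 CPM in WT, 217, 218 and 214 in Cbl-/-, 210.1, 203 and 217 in the libraries labelled Cbl-b-/-, and 260.1, 262 and 228 in those labelled DKO. DKO 3 lay well below the other libraries of its group and still above WT. The log2 fold change in DKO was 0.19 (SE 0.06, adjusted p = 0.016) and 0.25 (adjusted p = 5.2e-05) without DKO 3. The call was lost with scaling by total counts (log2 0.12, adjusted p = 0.15), in a fit of the genotypes compared alone (adjusted p = 0.069), and without WT 1 (0.053), DKO 1 (0.065) or DKO 2 (0.054). The departure of Ogdh from additivity was 0.27 (SE 0.08, adjusted p = 0.029) and was lost in 11 of 19 alternatives: with total counts (log2 0.16, adjusted p = 0.22) and when any single library other than Cbl-b-/- 3 or DKO 3 was left out (adjusted p up to 0.072).

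The NADP-dependent isocitrate dehydrogenases, IDH2 in mitochondria and IDH1 in the cytosol, and the cytosolic aconitase ACO1, which without its iron-sulfur cluster binds iron-responsive RNA elements, did not pass in any comparison with WT. Idh2 (ENSMUSG00000030541, chromosome 7, 80094846 to 80115392, minus strand) had 89.7, 93.1 and 95.5 CPM in WT, 102.1, 97.9 and 99.2 in Cbl-/-, 98.0, 98.8 and 98.4 in the libraries labelled Cbl-b-/-, and 101.9, 105.9 and 94.0 in those labelled DKO. DKO 3 fell within the WT range, and the log2 fold change in DKO was 0.12 (SE 0.05, adjusted p = 0.11) with it and 0.17 (adjusted p = 0.0061) without it. Idh1 (ENSMUSG00000025950, chromosome 1, 65158616 to 65186500, minus strand) had 148.7, 144.6 and 127.9 CPM in WT, 123.3, 118.1 and 125.7 in Cbl-/-, 142.8, 148.1 and 147.1 in the libraries labelled Cbl-b-/-, and 120.3, 118.7 and 146.0 in those labelled DKO. Cbl-/- lay below WT and DKO 1 and 2 did too, while DKO 3 lay within WT. The log2 fold change of Idh1 was -0.20 in Cbl-/- (SE 0.08, adjusted p = 0.12) and -0.13 in DKO (adjusted p = 0.20). Without DKO 3 these were -0.20 (adjusted p = 0.0070) and -0.23 (adjusted p = 0.0022), both called. The first was also called in a fit of Cbl-/- and WT alone (adjusted p = 0.017), and the second with total counts (-0.20, adjusted p = 0.038). The libraries of Cbl-/- also lay below all those labelled Cbl-b-/- for Idh1, by -0.25 on the log2 scale (SE 0.08, adjusted p = 0.053). This difference was called in 7 of 20 alternatives, among them DESeq2 (adjusted p = 0.026), total counts (0.040), a fit of the genotypes compared alone (4.9e-04) and the fit without DKO 3 (0.0013). In DKO against the libraries labelled Cbl-b-/-, Idh1 was at -0.18 (SE 0.08, unadjusted p = 0.026, adjusted p = 0.071), which became -0.29 (adjusted p = 3.8e-04) without DKO 3 and -0.28 (adjusted p = 0.0063) with total counts. Aco1 (ENSMUSG00000028405, chromosome 4, 40143081 to 40198338, plus strand) ranged from 58.1 to 67.8 CPM over all 12 libraries, and its log2 fold change was -0.12 in Cbl-/- (adjusted p = 0.24) and 0.01 in DKO (adjusted p = 0.91; 0.0016 without DKO 3).

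A further 12 enzymes and subunits of the cycle were read from the same fit. In the libraries labelled DKO all 12 rose against WT, where 19.1% of all genes were called higher and 35.4% in all. Their log2 fold changes ran from 0.15 to 0.38 with a median of 0.22. In Cbl-/- and in the libraries labelled Cbl-b-/-, none was called higher by edgeR, limma or DESeq2, none was called lower by edgeR, and 0 had an unadjusted p under 0.05. The count of 12 fell to 5 with scaling by total counts, to 6 in a fit of the genotypes compared alone and to 6 without WT 1, and it was 10 without DKO 3. The median of all genes also shifted by -0.07 for DKO against WT under total-count scaling, and 1773 genes were then called higher and 2873 lower, in place of 2423 and 2062. Succinate dehydrogenase, the target of itaconate inhibition, was represented by Sdha (0.29), Sdhb (0.28), Sdhc (0.36) and Sdhd (0.19). Sdhc, the clearest by adjusted p, had 138, 135 and 142 CPM in WT and 176, 188 and 169 in the libraries labelled DKO (adjusted p = 8.2e-05). Cytosolic Mdh1 rose by 0.30 (SE 0.07, adjusted p = 0.0034), from 166, 155 and 183 CPM to 191, 200.1 and 226.

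**Figure D3:**
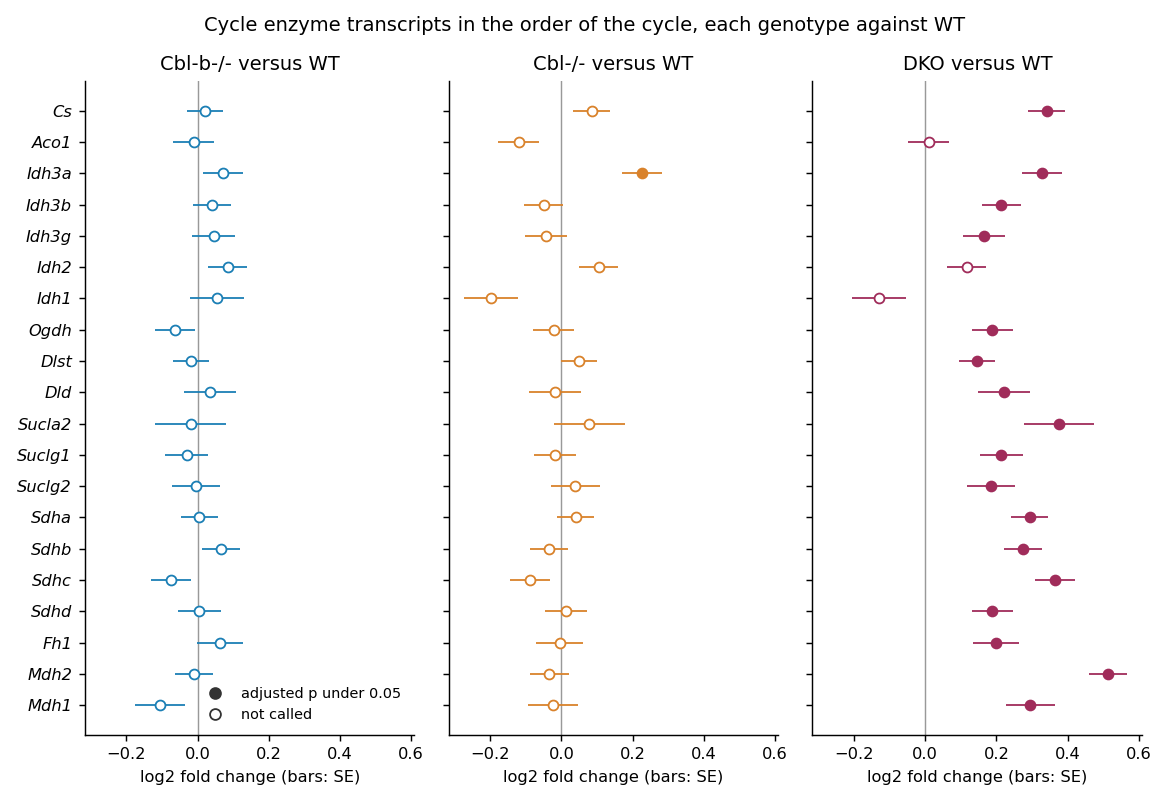
Log2 fold changes with SE of the cycle enzymes against WT, in the order of the cycle; filled points passed the test at an adjusted p of 0.05. In the libraries labelled DKO all but Aco1, Idh1 and Idh2 are called higher, between 0.15 and 0.51, while in Cbl-/- Idh3a alone is called and in the libraries labelled Cbl-b-/- no enzyme is.

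Members and other enzymes together were split by the place of the enzyme. In the libraries labelled DKO, 15 of 16 mitochondrial ones rose (median 0.22), against 1 of 3 with a cytosolic form only (Aco1, Idh1 and Mdh1). Fh1, which serves both places, was left out of this count and rose by 0.20. Of all genes tested, 19.1% were called higher in DKO and 35.4% in all. Without DKO 3 the calls of Dld (adjusted p = 0.064) and Suclg2 (0.076) were lost, and Idh2 was called (0.0061). The split was not recounted under total-count scaling, which lowered the number of other cycle enzymes called, as given above. The split rests on few cytosolic genes and was made after the values were known. The mitochondrial to cytosolic ratio Idh2/Idh1 per exonic base was 0.646 to 0.800 in WT, 0.845 to 0.888 in Cbl-/- and 0.689 to 0.955 in the libraries labelled DKO, where DKO 3 gave the lowest value.

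Genes that feed the cycle moved in the same comparison. Of 16 tested genes for the entry of carbon, 11 rose and 1 fell in the libraries labelled DKO (19.1% of all genes rose and 16.3% fell), with a median of 0.23. Without DKO 3, 10 rose and 1 fell. Pdha1 and Pdhb, which encode the catalytic component of pyruvate dehydrogenase, rose by 0.44 (SE 0.06, adjusted p = 2.0e-05) and 0.41 (SE 0.06, adjusted p = 6.6e-05). Of the kinases that switch this enzyme off, Pdk3 rose by 0.59 (SE 0.12, adjusted p = 0.0010) and Pdk2 fell by 0.82 (SE 0.14, adjusted p = 2.4e-04). Pdk2 was at 6.73, 5.62 and 7.07 CPM in WT and at 4.15, 3.59 and 3.25 in DKO, so its groups did not overlap. In Cbl-/- Pcx, the pyruvate carboxylase gene, rose by 0.51 (SE 0.14, adjusted p = 0.029) and Pdk1 by 0.19 (SE 0.05, adjusted p = 0.023). The Pcx call was lost when WT 1, 2 or 3 or Cbl-/- 1 or 3 was left out (lowest log2 fold change 0.44, highest adjusted p = 0.14), and the Pdk1 call when any single WT or Cbl-/- library was (highest adjusted p = 0.085). None of the 16 was called in the libraries labelled Cbl-b-/- by edgeR, limma or DESeq2, and 2 had an unadjusted p under 0.05 there.

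A list of 9 genes covered citrate export, its use outside mitochondria, other mitochondrial carriers and malic enzymes. Of these, 5 rose in the libraries labelled DKO (19.1% of all genes rose) and 3 in Cbl-/- (5.68%). The 3 in Cbl-/- were Slc25a13, Slc25a12 and Me2, and did not include the citrate carrier gene Slc25a1 or Acly. Without DKO 3, 5 rose in DKO and 1 fell, the malic enzyme gene Me1 (log2 -0.22, adjusted p = 0.0092, against -0.08 with DKO 3). The aspartate-glutamate carriers Slc25a13 and Slc25a12, which serve the malate-aspartate shuttle, rose by 0.58 (SE 0.06, adjusted p = 2.8e-06) and 0.45 (SE 0.06, adjusted p = 1.1e-05) in DKO, and by 0.25 and 0.20 in Cbl-/- (adjusted p = 0.017 and 0.036). The malic enzyme gene Me2 rose in DKO and Cbl-/- by 0.41 (SE 0.06, adjusted p = 3.3e-05) and 0.27 (SE 0.06, adjusted p = 0.0056). Acly, the ATP-citrate lyase that splits exported citrate, rose in DKO by 0.18 (SE 0.05, adjusted p = 0.0093), which total-count scaling left at 0.11 and not called (adjusted p = 0.11). Slc25a1, the citrate carrier itself, had a log2 fold change of -0.00 in DKO (adjusted p = 0.97). In Cbl-/- it was at -0.13 (adjusted p = 0.40, and 0.045 without DKO 3). The Cbl-/- call of Slc25a13 was lost without WT 1 or 2 or Cbl-/- 1 or 3 (adjusted p up to 0.13), and that of Slc25a12 when any single WT or Cbl-/- library was left out (adjusted p up to 0.16).

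Of the genes of itaconate breakdown, Clybl, which acts on the citramalyl-CoA made from itaconate, rose in the libraries labelled DKO. It had 8.30, 7.80 and 9.11 CPM in WT and 11.5, 11.2 and 14.2 in DKO (log2 0.55, SE 0.13, adjusted p = 0.0035). Sugct, which attaches CoA to itaconate, was under 0.31 CPM in every library and did not pass the filter.

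Inflammatory genes that are often induced together with Acod1 were compared next. Of 12 tested, 4 rose in Cbl-/- (5.68% of all genes rose), 3 in the libraries labelled Cbl-b-/- (0.395%) and 7 in those labelled DKO (19.1%), where 1, Irf8, fell (16.3%). Without DKO 3, 6 rose in DKO, as the call of Ptgs2 was lost (log2 0.47, adjusted p = 0.045 with it, 0.18 without). Socs3, an inhibitor of cytokine receptor signalling, had 5.52, 6.13 and 5.07 CPM in WT, 9.70, 9.71 and 10.7 in the libraries labelled Cbl-b-/-, 18.1, 18.5 and 19.5 in Cbl-/-, and 20.3, 24.5 and 18.7 in those labelled DKO. Cbl-/- and DKO thus overlapped for Socs3, in contrast to Acod1. The interferon-induced chemokine gene Cxcl10 rose by 1.43 (SE 0.16) in Cbl-/-, 0.90 (SE 0.17) in the libraries labelled Cbl-b-/- and 2.36 (SE 0.16) in DKO, with adjusted p = 3.6e-05, 0.024 and 6.7e-08. Tnf rose by 0.84, 0.42 and 0.73 in the same order (adjusted p = 1.6e-06, 0.016 and 2.1e-06). In the libraries labelled Cbl-b-/-, the call of Cxcl10 was lost in 8 of 20 alternatives, limma among them (adjusted p = 0.11), and that of Tnf without WT 1 or 2 or Cbl-b-/- 2 or 3 (adjusted p up to 0.14). Irf7, an interferon regulatory factor, had 28.5, 26.5 and 39.9 CPM in WT and 116, 129 and 106 in the libraries labelled DKO, which lay above all 9 others. It rose in DKO by 1.90 on the log2 scale (SE 0.18, adjusted p = 8.7e-06). Nos2, the inducible nitric oxide synthase gene, stayed under 0.49 CPM in every library and was not tested, and Il6 and Il12b are not in the table.

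The 6 genes whose pattern was most like that of Acod1, by Pearson's r of log2(CPM + 0.25) over the 12 libraries among 10179 genes, were C3 (0.988), Stx11 (0.987), Gpr132 (0.987), Igsf6 (0.987), Nadk (0.987) and Stom (0.984). The libraries share genotype groups, so these values describe likeness between group patterns. C3, the central complement component, had 13.7, 15.5 and 14.2 CPM in WT, 21.6, 32.4 and 19.8 in the libraries labelled Cbl-b-/-, 38.8, 44.2 and 43.1 in Cbl-/-, and 105.1, 107.0 and 102.4 in those labelled DKO. It repeated the order of the groups seen for Acod1, with the high value of the library Cbl-b-/- 2. Stom, which encodes a membrane protein, had the same order with a small change, from 324 ± 7.7 CPM in WT to 479 ± 19 in DKO (SD, n = 3; log2 0.56, SE 0.05). With Spearman's rho, only Stom was still among the first 6. The monocyte marker Vcan then tied with other genes at rank 1 (rho 0.993), while by Pearson's r it was at rank 23 (0.971). Against WT, Vcan was called higher in Cbl-/- (log2 1.11) and in the libraries labelled DKO (2.56). Of the other members, Idh3a came closest to Acod1 (r = 0.942), followed by Cs (0.888) and Mdh2 (0.759), and Idh1 was the most unlike (-0.506).

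**Figure D4:**
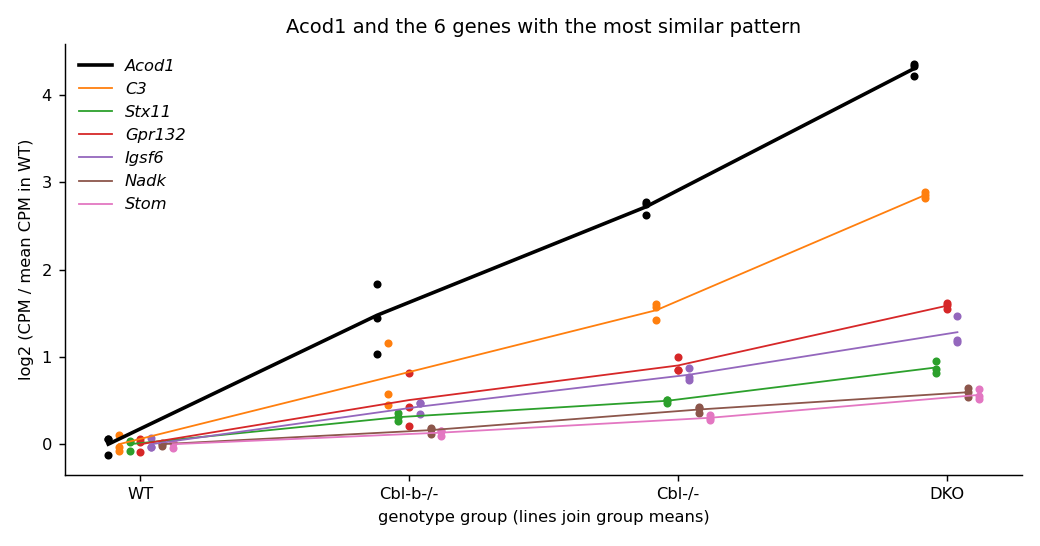
Log2 ratio of CPM to the WT mean for Acod1 and the 6 genes most like it; points are libraries and lines join group means of unordered genotypes. All 7 genes have their lowest mean in WT and their highest in the libraries labelled DKO, and the change of Acod1 (log2 4.30) exceeds that of C3 (2.85) and Stom (0.56).

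The rise of the cycle enzymes in the libraries labelled DKO against WT went together with marker changes in these libraries. Of all genes tested, 19.1% were called higher in this comparison and 16.3% lower. Of the 5 neutrophil markers measured, 4 rose and Mmp8 fell, and of the 5 monocyte markers 4 rose. S100a9 was at 26.9, 26.7 and 39.3 CPM in DKO against 0.616 to 0.785 in WT. DKO 3 had the highest sum of both lists. Of 5 stromal and endothelial markers measured, 4 rose (12.8 to 16.3 CPM in sum, against 3.46 to 5.68 in WT). The neutrophil, monocyte and stromal counts were the same without DKO 3. The 5 dendritic cell markers in the table were low but also higher in DKO, at 2.91 to 3.18 CPM in sum against 1.04 to 1.18 in WT. Zbtb46, 1 of the 2 tested, was called (log2 1.73, adjusted p = 0.0015). Without DKO 3, 2 dendritic cell markers were called higher. The 2 lymphocyte markers in the table summed to under 1.01 CPM in every library. Among markers in the table, Siglech alone had a count of 0 in all libraries of a group, those labelled Cbl-b-/-. The part of these cells in the rise of the cycle enzymes was not tested.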

How the data were processed

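RNA was measured in 12 libraries made with a TruSeq stranded kit, per the labels' protocols. The authors deposited whole-number read counts per gene, with no normalization. The genome build was GRCm38.p5, per the submitters' processing notes, and no aligner, counting program or strand setting is named in the sources used here. Every gene of the table has at least 1 count in WT 1, so genes silent there are not analysed here. Of 15555 genes, 15506 carried a symbol.

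Groups came from the genotype labels. From the counts, filterByExpr left 12671 genes, TMM factors scaled the libraries, and edgeR 4.0.16 (R 4.3.3) fitted 1 mean per genotype to all 12 libraries by robust quasi-likelihood. The F test was adjusted by Benjamini-Hochberg over all genes tested, with a threshold of 0.05, for the 6 pairs of genotypes and the departure from additivity (on the log2 scale, DKO plus WT, minus both single knockouts). SE is the log2 fold change divided by the square root of F. Levels are CPM, and RPKM divides them by the union of GENCODE exons. The test scripts were tested on simulated data. Replicates did not repeat a library: no pair agreed within sampling noise (chi-square per degree of freedom 3.93 to 55.3). Alternatives were other scalings, low-count filters and tests (limma 3.58.1, DESeq2 1.42.0), a block for the replicate number, fits to only the genotypes compared, and leaving out each library.

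The members and lists were chosen with earlier results of these data known. Named were Cbl, Cblb, the members, up to 4 genes with the smallest adjusted p per pathway list and comparison with WT, and the 6 genes most like Acod1 at a mean log2 CPM of 1 or more. Genes outside this rule (Sdhd, Fh1, Slc25a1, Me1, Sugct, Nos2, Irf8, Ptgs2, Nop56 and cell type markers) were chosen after their values were seen. No chance test was made on lists. Some genes of these lists are not reported here.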

Additional observations from a re-analysis of the deposited data

Results flagged for a closer look

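The effect of the DKO label was compared with the sum of both single-knockout effects, by the departure from additivity in edgeR's quasi-likelihood fit. It differed in 14 of the members and pathway-list genes named by the rule above. The pathway-list genes were named for a small adjusted p against WT, and this contrast reuses those libraries. The 14 are thus no measure of how common such departures are. Over whole lists, 3 of 9 members, 5 of 12 other cycle enzymes and 3 of 16 carbon-entry genes were called. So were 1 of 9 genes of the citrate list and 5 of 12 inflammatory genes, against 15.7% of all genes tested. The targeted gene Cbl also departed (log2 -0.44, adjusted p = 0.0022). Among the members the departure was 0.23 for Cs, 0.27 for Ogdh and 0.56 for Mdh2 on the log2 scale. Of all genes tested, 8.39% were called above and 7.28% below additivity. The calls of Cs and Ogdh were each lost in 11 of 19 alternatives. Of the other cycle enzymes, 5 were called above additivity in the fit to all libraries, and 2 to 5 over left-out libraries. The loss of single calls in this contrast was counted for the members only. Among the other cycle enzymes named, the departure was 0.42 for Mdh1, 0.25 for Sdha, 0.24 for Sdhb and 0.53 for Sdhc. It was 0.31 for Pdha1, -0.96 for Pdk2 and 0.35 for Slc25a13. Of the inflammatory genes, Irf7 lay above the sum by 1.56, while Socs3 (-0.66), Tnf (-0.53) and Nfkbiz (-0.80) lay below it. Under scaling by total counts the median of all genes shifted by -0.11 in this contrast, and the genes called above and below additivity went from 1063 and 922 to 711 and 1719. These values rest on the labels Cbl-b-/- and DKO, in which the Cblb counts do not bear out the loss of Cblb.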

How the results depend on the processing

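Acod1 kept its 6 calls between genotypes in all 20 alternatives, and 40 of 57 calls of named genes were kept in each. Its departure from additivity ranged from -0.0686 to 0.359 over left-out libraries.

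Genes called in Cbl-/- against WT numbered 1251, but 2753 in a fit of the genotypes compared alone and 733 to 2206 over left-out libraries (lowest without WT 1, highest without DKO 3). For the label Cbl-b-/- against WT the 62 became 145 with DESeq2 and 35 to 144 over left-out libraries. For DKO against Cbl-b-/- the 4211 became 2760 in a fit of those genotypes alone, and for Cbl-/- against Cbl-b-/- the 934 became 1712 in such a fit and 533 to 1903 over left-out libraries. Members called higher in Cbl-/- numbered 1 to 2 over left-out libraries. The other cycle enzymes called higher in DKO numbered 5 under total counts, 6 in a fit of DKO and WT alone and 6 to 12 over left-out libraries. The causes were not tested.

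Signs changed for small, uncalled log2 values. Under total counts Aco1 was at 0.011 in the label Cbl-b-/- against WT, -0.060 in DKO against WT and -0.072 in DKO against Cbl-b-/-, Idh1 at -0.021 in DKO against Cbl-/- and -0.098 for additivity, Idh2 at -0.076 and -0.059 in DKO against Cbl-/- and Cbl-b-/-, Idh3a at -0.079 for additivity, and Mdh2 and Cbl at 0.011 and 0.012 in Cbl-b-/- against WT. Over left-out libraries, values in Cbl-b-/- against WT were -0.0116 to 0.0382 for Cs, -0.0496 to 0.0331 for Aco1, -0.00705 to 0.0988 for Idh1, -0.0551 to 0.0307 for Mdh2 and -0.0297 to 0.00675 for Cbl. In DKO, Aco1 was at -0.0104 to 0.0396 against WT and -0.0233 to 0.0597 against Cbl-b-/-, Idh1 at -0.0346 to 0.123 against Cbl-/-, and Idh2 at -0.0257 to 0.0590 against Cbl-/- and -0.00536 to 0.0797 against Cbl-b-/-. Mdh2 was at -0.0624 to 0.0216 in Cbl-/- against Cbl-b-/-, and additivity gave -0.0896 to 0.0761 for Idh1 and -0.0267 to 0.0611 for Idh3a.

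Replicate numbers did not pair the samples: same-numbered libraries deviated from their group means with correlations of -0.054 to 0.052. With the replicate number as a block, 1139, 60 and 4280 genes were called in Cbl-/-, Cbl-b-/- and DKO against WT, in place of 1251, 62 and 4485, and 11 of 12 other cycle enzymes in DKO. Among the 6 genes most like Acod1, 1 remained with Spearman's rho.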
